A study of Mus musculus with 7 samples.

Results

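The complement system is a cascade of plasma proteins that mark, opsonise and lyse targets, and the liver is the main source of most of them. Recognition by C1q (classical), by mannose-binding lectins, ficolins and collectins (lectin) or by spontaneous turnover of C3 (alternative) leads to cleavage of C3 and C5 and to assembly of the membrane attack complex from C5b, C6, C7, C8 and C9. Hepatocytes make most of these proteins and raise the output of many of them in the acute phase response, whereas C1q, properdin and the anaphylatoxin receptors come mainly from macrophages and other myeloid cells. The 33 genes described here are genes of complement components, regulators and receptors and were taken by symbol from the deposited count table. All 33 were found among its 24421 gene symbols, and all 33 passed the filter on low counts. By source, 22 were grouped as hepatocyte-made, 7 as macrophage-made and 4 as of no single source, namely C7, Cfd, Cd55 and Cd59a.

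The RNA came from the liver of C57BL/6 mice aged 36 weeks, 4 labelled Prkciflox/floxAlbCre (knockout 1 to 4 here) and 3 labelled Prkciflox/flox (controls 1 to 3). Both groups carry the floxed alleles of Prkci, which encodes the atypical protein kinase C lambda/iota, and the AlbCre transgene of the mice labelled knockout puts Cre under the albumin promoter, which is active in hepatocytes. Every mouse had been given diethylnitrosamine, a liver carcinogen, at 25 mg/kg by intraperitoneal injection at the age of 2 weeks, and then a 60% fat diet over 32 weeks from 4 weeks of age. Whether tumour or surrounding liver was taken is not stated in the labels.

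Libraries held 23807580 to 49203615 reads assigned to genes. Levels are counts scaled by TMM factors and library size (CPM), and each gene was tested with edgeR's quasi-likelihood test, with Benjamini-Hochberg adjustment over 13638 genes and a threshold of 0.05. Whole-gene Prkci counts were not lower in the libraries labelled knockout, at 29.4 ± 1.15 CPM (SD, n = 4) in the libraries labelled knockout and 23.8 ± 3.64 CPM (SD, n = 3) in the controls (log2 fold change 0.30, SE 0.12, edgeR adjusted p = 0.214). The groups did not overlap, with 28.2 to 30.7 CPM in the libraries labelled knockout above 20.4 to 27.7 CPM in the controls. A whole-gene count includes reads outside a deleted part and checks the labels neither way, so every direction rests on the labels alone. Hepatocyte markers were summed for the 6 of 7 found by symbol, none of them at 0. The other, Tf, is named Trf in the GENCODE M21 annotation and was not looked up under that name. The sums were 52850.5 to 67283 CPM in the libraries labelled knockout and 70842 to 101465 CPM in the controls. Most of each sum was Alb, whose groups overlapped (log2 fold change -0.42, SE 0.29, edgeR adjusted p = 0.487). None of the 6 passed edgeR's test, 4 were below 0 and 2 above, and their median log2 fold change was -0.18. Apoa1, at -0.76 without overlap, had the sole unadjusted p under 0.05 among them in edgeR and passed DESeq2. Their part in the results below was not tested. Among the controls, 1 and 2 stood apart from control 3. The 27 genes of an acute phase list without complement members took 3.60% to 4.70% of the gene reads in the libraries labelled knockout, against 14.9% and 15.2% in controls 1 and 2 and 3.67% in control 3. Neutrophil markers, 5 of 6 in the table, split the controls the same way and summed to 7.44, 9.05, 7.00 and 5.69 CPM in the libraries labelled knockout 1 to 4, against 252, 59.3 and 9.83 CPM in controls 1 to 3. Beside the results stand fits with control 3 as the lone control, in which it is assumed to vary like the other libraries.

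In the libraries labelled knockout none of the 33 complement members rose and 5 fell: C6, C8a and C8b of the membrane attack complex, the C1r-like protease C1rl and the lectin pathway protease Masp1. Among all genes tested 2.21% were called and 0.953% were called lower. The 0 members that rose stand against 1.26% of all genes, and 28 members did not pass. DESeq2 called 16 members, where it called 8.34% of all genes, and limma-voom 3 (C6, C8a and C8b), where it called 1.00%; all were lower. At an unadjusted p under 0.05, 17 members were lower and 0 higher, where 18.0% of all genes passed, 8.67% lower and 9.34% higher. The groups did not overlap for 11 members, all lower in the libraries labelled knockout, where 8.63% of all genes were higher without overlap and 7.63% lower. The median log2 fold change was -0.62 over the members and -0.0083 over all genes tested. Of the 33 members 30 were below 0, against 51.1% of all genes tested. In bulk liver, fewer cells of a type and less RNA per cell cannot be told apart. The count of 5 rested on both controls 1 and 2. It was 0 in edgeR without control 1, where 0.255% of all genes were called, and 0 without control 2, where 0.221% were. At an unadjusted p under 0.05 these fits had 16 members each, against 13.4% of all genes without control 1 and 12.1% without control 2. Without control 3 the count was 21, where 9.32% of all genes were called; the members added were C1qa, C1qb, C1qc, C1ra, C3, C4a, C4b, C4bp, C9, Cfb, Cfi, Clu, Hc, Mbl1, Serping1 and Vtn. It was 2 without knockout 1, 5 without knockout 2, 1 without knockout 3 and 1 without knockout 4, where 0.573%, 3.19%, 0.405% and 0.498% of all genes were called in that order.

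**Figure D1:**
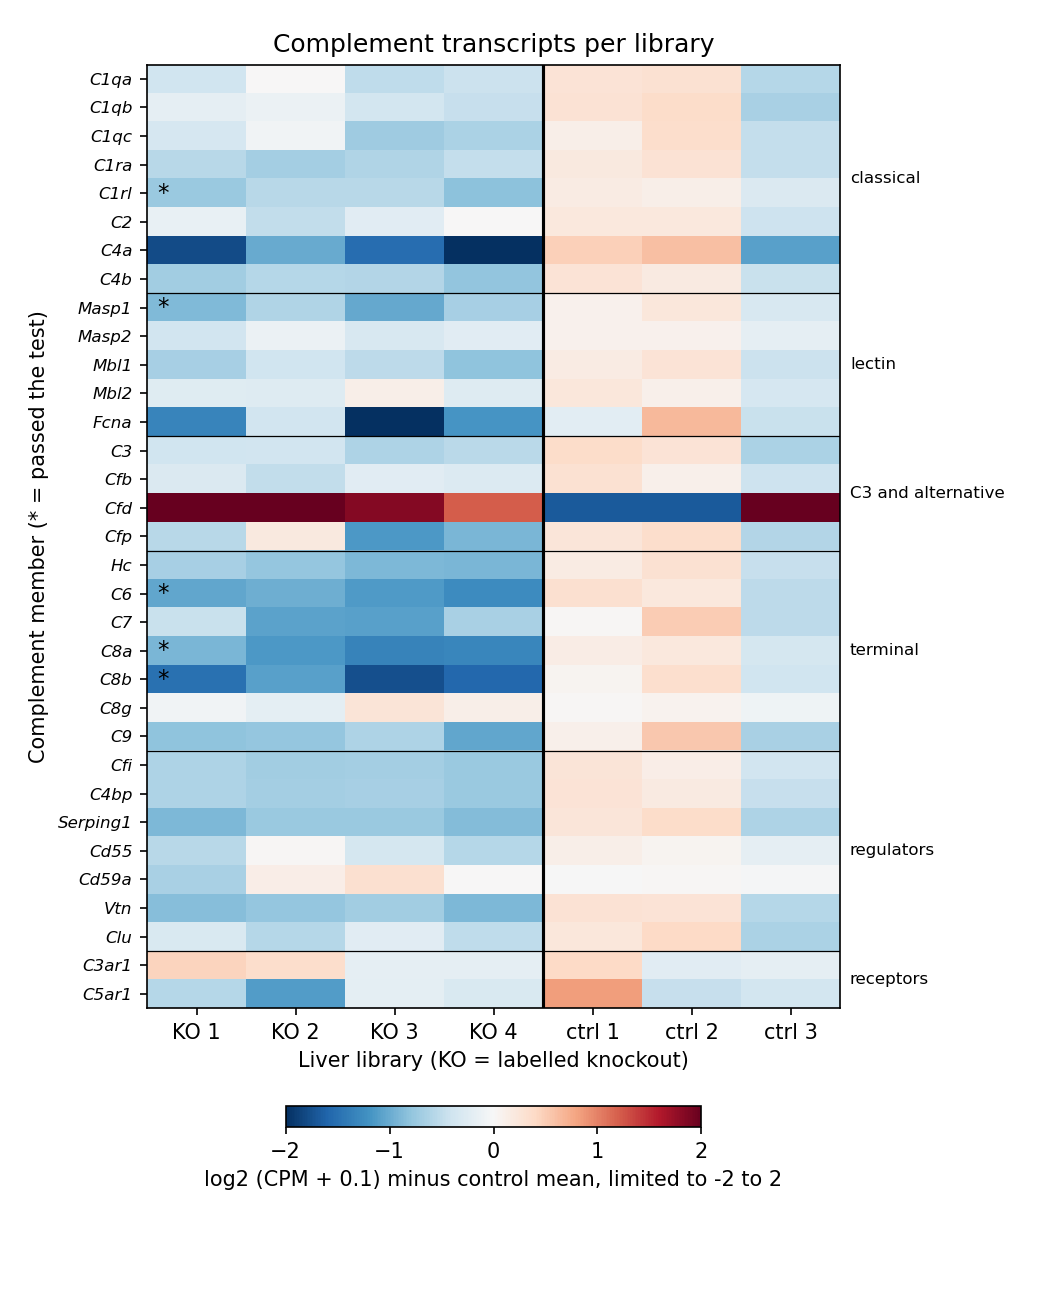
Level of each complement member (rows, grouped by step) in each library (columns, libraries labelled knockout left of the controls), as log2 of CPM + 0.1 minus the control mean, with colours limited to -2 and 2. Asterisks mark the 5 members that passed the test, and control 3 is blue in most rows where controls 1 and 2 are pale red, as for C3 and Vtn.

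Among the 6 steps the terminal one held 3 of the 5 members that fell. Promoters of C6, C8a, C8b and C8g are shown first. The choice was made because C8a and C8b fell while C8g, the third subunit of the same C8 protein, did not pass. Each sequence is RefSeq's (GRCm38.p6), 250 bases before to 50 after the gene start, written 5′ to 3′ on the strand of the gene. Capitals mark matches, on either strand, to GTTAAT (HNF1, a transcription factor of hepatocytes), TGTTTNC (FOXA) and TTCNNNGAA (STAT). No matches overlapped in these windows, and the motifs were chosen after the values were seen.
C6 promoter (chr15:4726960-4727259, plus strand): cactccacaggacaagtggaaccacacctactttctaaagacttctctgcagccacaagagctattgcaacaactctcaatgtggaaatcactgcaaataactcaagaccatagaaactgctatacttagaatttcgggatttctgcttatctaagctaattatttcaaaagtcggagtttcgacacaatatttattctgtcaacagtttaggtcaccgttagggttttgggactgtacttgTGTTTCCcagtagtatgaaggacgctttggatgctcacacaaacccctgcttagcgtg
C8a promoter (chr4:104876349-104876648, minus strand): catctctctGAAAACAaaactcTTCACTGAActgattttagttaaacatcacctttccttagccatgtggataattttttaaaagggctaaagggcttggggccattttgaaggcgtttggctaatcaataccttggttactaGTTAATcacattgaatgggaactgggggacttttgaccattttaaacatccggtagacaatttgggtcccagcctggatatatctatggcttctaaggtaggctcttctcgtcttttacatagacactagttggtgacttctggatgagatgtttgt
C8b promoter (chr4:104766067-104766366, plus strand): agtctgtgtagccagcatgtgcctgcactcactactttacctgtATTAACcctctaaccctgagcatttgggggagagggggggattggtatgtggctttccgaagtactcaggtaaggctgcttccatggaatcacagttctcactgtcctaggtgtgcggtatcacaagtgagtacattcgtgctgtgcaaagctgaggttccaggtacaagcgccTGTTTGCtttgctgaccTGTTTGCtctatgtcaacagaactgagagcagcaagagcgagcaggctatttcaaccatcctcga
C8g promoter (chr2:25501670-25501969, minus strand): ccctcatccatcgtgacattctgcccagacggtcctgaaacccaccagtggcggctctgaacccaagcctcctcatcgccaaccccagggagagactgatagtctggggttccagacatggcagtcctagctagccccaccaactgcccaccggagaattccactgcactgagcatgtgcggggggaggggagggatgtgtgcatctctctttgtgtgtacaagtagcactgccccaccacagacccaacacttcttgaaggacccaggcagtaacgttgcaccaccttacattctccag

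The C8a window held 1 match to GTTAAT, 1 to TGTTTNC and 1 to TTCNNNGAA, the C8b window 1 to GTTAAT and 2 to TGTTTNC, the C6 window 1 to TGTTTNC, and the C8g window none of these letters. Other motifs were searched, TTNNGCAA (C/EBP) and the NF-kappaB consensus, with no match in these windows. Of 32851 promoter windows in the table, 7.1% held GTTAAT, 20.5% TGTTTNC, 8.3% TTCNNNGAA, 10.8% TTNNGCAA and 8.46% the NF-kappaB consensus. A window was found for 24 of the 33 members, of which 9 held GTTAAT, 7 TGTTTNC, 5 TTCNNNGAA, 4 TTNNGCAA and 1 the NF-kappaB consensus. Terminal genes that did not pass and are not shown also held matches. Hc held 1 to GTTAAT, C7 held 1 to GTTAAT and 1 to TTCNNNGAA, and C9 held 1 to TTNNGCAA. C1rl, which fell, held 1 match to TTNNGCAA and none to the motifs marked above. Whether the motifs bear on the levels was not tested.

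C8b, which encodes the beta chain of C8 that binds C5b-7, had the largest fall among the members that passed. Its level was 124, 166, 104 and 117 CPM in the libraries labelled knockout 1 to 4, against 365, 445 and 267 CPM in controls 1 to 3. All 4 libraries labelled knockout lay below all 3 controls (log2 fold change -1.49, SE 0.20, edgeR adjusted p = 0.0125). C8a, the alpha chain that is linked to the gamma chain and enters the membrane, was at 723, 616, 544 and 555 CPM in the libraries labelled knockout 1 to 4, against 1515, 1578 and 1069.7 CPM in controls 1 to 3. These groups did not overlap either (log2 fold change -1.19, SE 0.18, edgeR adjusted p = 0.0197). The genes of these chains are neighbours in mm10, C8a on chromosome 4 from 104815679 to 104876398 on the minus strand and C8b on chromosome 4 from 104766317 to 104804548 on the plus strand, with 11130 bases between them.

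C8g encodes the gamma chain, a lipocalin, and lies on another chromosome (chromosome 2 from 25498651 to 25501719 on the minus strand). It was at 247, 228, 312 and 281 CPM in the libraries labelled knockout 1 to 4, against 263, 272 and 245 CPM in controls 1 to 3. The groups overlapped (log2 fold change 0.038, SE 0.13, edgeR adjusted p = 0.917). The subunits can be set against each other within a library, where the scaling of the library cancels. C8a over C8g, per kilobase of exon, was 1.20, 1.11, 0.716 and 0.811 in the libraries labelled knockout 1 to 4, against 2.37, 2.38 and 1.79 in controls 1 to 3. C8b over C8g was 0.296, 0.427, 0.196 and 0.245 in the libraries labelled knockout 1 to 4, against 0.814, 0.959 and 0.638 in controls 1 to 3. For both ratios the 4 libraries labelled knockout lay below the 3 controls, with an exact two-sided permutation p of 0.0286, the smallest that 35 arrangements allow, and 0.0714 after Benjamini-Hochberg adjustment over the 5 ratios computed, which were chosen after the values were seen. C8a over C8b, at 3.41 ± 0.625 in the libraries labelled knockout and 2.73 ± 0.223 in the controls (SD), overlapped between the groups (exact permutation p = 0.171). C8g overlaps Fbxw5 on the opposite strand over 970 bases and C8a overlaps Gm17662 over 1809. The library kit marks strand, but nothing in the labels says whether the counting used it, so their levels are uncertain to that extent; the same holds for C2, which overlaps Zbtb12 over 17385 bases, and for Hc, C1rl, Masp1, Masp2, Fcna, C7 and Cd55, which also overlap genes on the opposite strand. Fbxw5 itself was at 39.2 to 43.9 CPM in the libraries labelled knockout and 32.4 to 42.1 CPM in the controls.

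C6, which joins C5b to start the attack complex (chromosome 15 from 4727175 to 4814967 on the plus strand), was at 207, 216, 195 and 177 CPM in the libraries labelled knockout 1 to 4, against 530.3, 489.9 and 295 CPM in controls 1 to 3. No library labelled knockout reached a control (log2 fold change -1.14, SE 0.19, edgeR adjusted p = 0.0219). Hc, the mouse gene of C5, was at 1700.2, 1589, 1451 and 1430.5 CPM in the libraries labelled knockout 1 to 4, against 3021, 3328 and 1967 CPM in controls 1 to 3. Its groups did not overlap, but it did not pass the test (log2 fold change -0.85, SE 0.21, edgeR adjusted p = 0.0653). C9, the subunit that polymerises into the pore, was at 549, 563, 626 and 469.7 CPM in the libraries labelled knockout 1 to 4, against 1037, 1403 and 614 CPM in controls 1 to 3. Control 3 lay inside the range of the libraries labelled knockout (log2 fold change -0.88, SE 0.25, edgeR adjusted p = 0.0936). C7, which anchors the complex to the membrane, was scarce at 2.62, 1.65, 1.64 and 2.24 CPM in the libraries labelled knockout 1 to 4, against 3.65, 5.11 and 2.46 CPM in controls 1 to 3, with control 3 again inside the range of the knockouts (log2 fold change -0.87, SE 0.31, edgeR adjusted p = 0.182). Without control 2 the log2 fold change was -0.58 for C9 and -0.57 for C7. Of 8 markers of stellate cells or fibroblasts, cells of the kind that can make C7, 0 passed edgeR's test and 4 DESeq2's, with 4 higher and 1 lower at an unadjusted p under 0.05 in edgeR; they summed to 298 to 451 CPM in the libraries labelled knockout and 233 to 386 CPM in the controls. Their part in the C7 values was not tested.

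**Figure D2:**
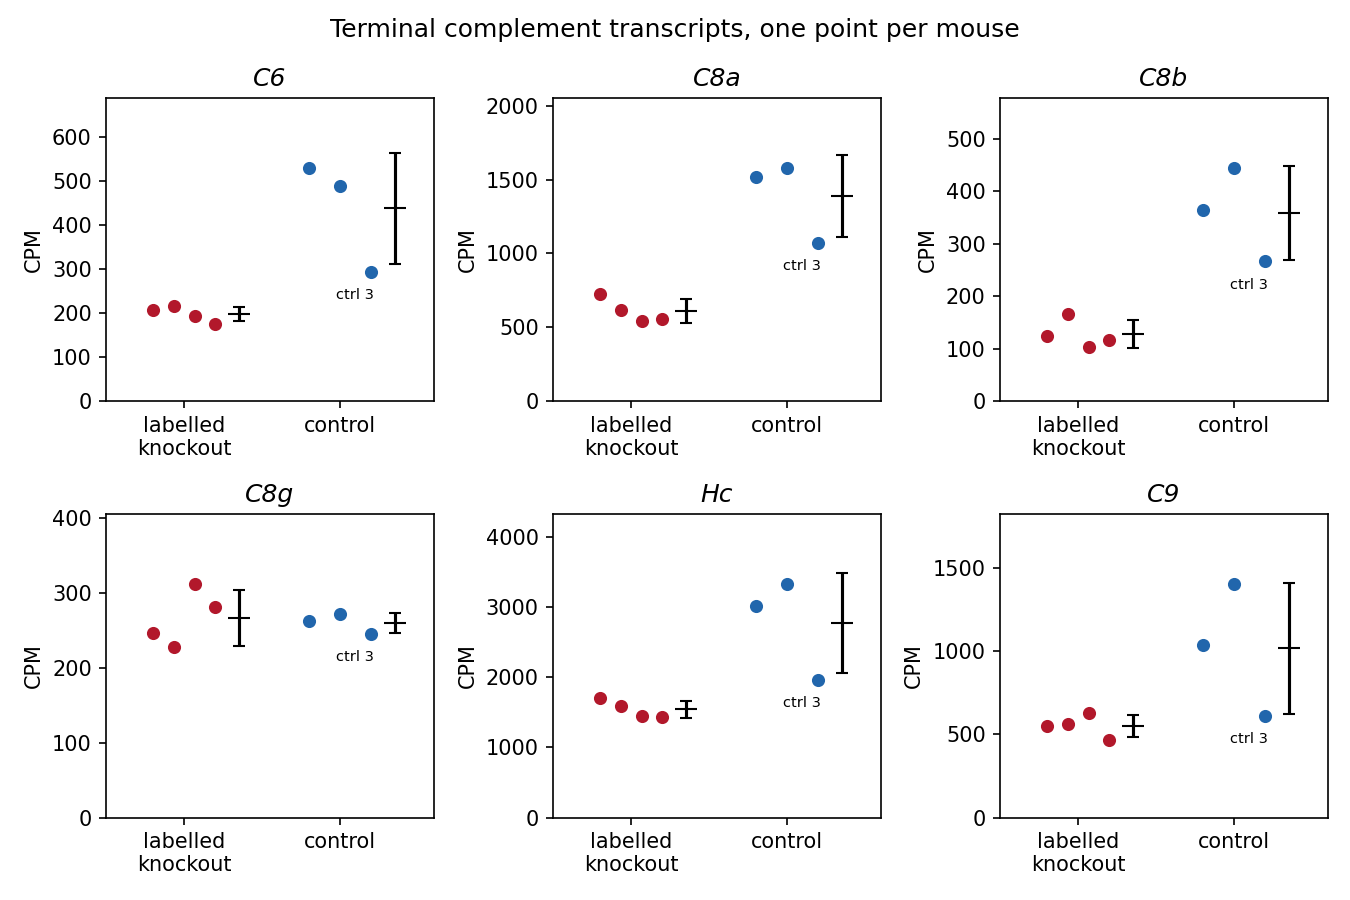
CPM of 6 terminal complement genes, with 1 point per mouse, libraries labelled knockout on the left and controls on the right, and bars for mean and SD. Control 3 is above all 4 libraries labelled knockout for C6, C8a, C8b and Hc, among them for C9 and C8g.

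C8b, C8a and C6 stayed lower when control 3 was the lone control, though none passed there. The log2 fold change against control 3 was -1.06 (SE 0.22) for C8b (edgeR adjusted p = 0.139), -0.81 (SE 0.18) for C8a (adjusted p = 0.158) and -0.57 (SE 0.15) for C6 (adjusted p = 0.23). With this lone control 9 of 14709 genes passed in all, and 5 of the 33 members had an unadjusted p under 0.05, against 10.9% of all genes. For Hc the value was -0.35 (SE 0.17), for C9 -0.16 (SE 0.19) and for C8g 0.12 (SE 0.20). When each library was left out in turn, C8b passed in 5 of 7 fits (adjusted p from 0.000517 to 0.06), C8a in 3 (up to 0.0876) and C6 in 2 (up to 0.0951).

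In the classical step all 8 members had a log2 fold change below 0, and 1 fell. C1rl, a protease related to C1r (chromosome 6 from 124493113 to 124510643 on the plus strand), was at 113, 129, 129 and 108 CPM in the libraries labelled knockout 1 to 4, against 214, 207 and 155 CPM in controls 1 to 3. The controls all lay above the libraries labelled knockout (log2 fold change -0.68, SE 0.13, edgeR adjusted p = 0.0344), and against control 3 alone the value was -0.38 (SE 0.15). C1rl passed in 2 of 7 fits when each library was left out in turn (adjusted p up to 0.155). C1ra, the C1r protease that is activated in the C1 complex, was at 150.3, 139, 145 and 159 CPM in the libraries labelled knockout 1 to 4, against 253, 269 and 158 CPM in controls 1 to 3, with control 3 inside the range of the knockouts (log2 fold change -0.61, SE 0.17, edgeR adjusted p = 0.0927). C1ra shares 42.4% of its 75-base windows with other genes, mainly its copy C1rb, so its level is uncertain. C2, the protease part of the C3 convertase, overlapped between the groups and had a log2 fold change of -0.23 (SE 0.17), which was 0.21 (SE 0.19) against control 3 and 0.033 with library size as the only scaling. Of its 75-base windows 55.6% are shared with Gm20547, a read-through gene across C2 and Cfb that is not a symbol of the table.

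C4b, the C4 that is cleaved by C1s and the lectin proteases, was at 1925, 2103, 2090.3 and 1807 CPM in the libraries labelled knockout 1 to 4, against 3764, 3559 and 2286 CPM in controls 1 to 3. The groups did not overlap, but C4b did not pass (log2 fold change -0.69, SE 0.21, edgeR adjusted p = 0.116). C4a, the near-identical mouse copy known as sex-limited protein, is listed as a processed transcript in GENCODE M21, where C4b is protein-coding. C4a was at 19.2, 33.4, 23.2 and 12.3 CPM in the libraries labelled knockout 1 to 4, against 93.3, 102 and 31.6 CPM in controls 1 to 3. Control 3 lay within the range of the libraries labelled knockout and the gene did not pass (log2 fold change -1.78, SE 0.50, edgeR adjusted p = 0.14). Their longest transcripts agree at 96.1% of 5367 aligned bases, and 23.6% of the 75-base windows of C4a, the length of a read, occur unchanged in C4b, so how reads were split between these copies is uncertain. The 90 bases below, from GENCODE M21 transcripts within the coding part of C4b, are where they differ most. Differing bases are in capitals, 14 in all.
C4a (transcript bases 2725 to 2814): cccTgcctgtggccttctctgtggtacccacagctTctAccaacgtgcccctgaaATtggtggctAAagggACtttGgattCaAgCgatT
C4b (transcript bases 2731 to 2820): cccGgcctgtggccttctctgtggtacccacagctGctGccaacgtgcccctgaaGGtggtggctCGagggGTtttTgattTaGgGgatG

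C4a over C4b, per kilobase, was 0.00917, 0.0146, 0.0102 and 0.00626 in the libraries labelled knockout 1 to 4, against 0.0227, 0.0263 and 0.0127 in controls 1 to 3, so the control 3 ratio lay between those of the knockouts (exact two-sided permutation p = 0.0857, 0.107 adjusted over the 5 ratios). C4a passed when control 3 was left out (-2.15, edgeR adjusted p = 0.0216) and was at -0.52 (SE 0.51) against control 3 alone.

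The C1q chains, made by macrophages, form the recognition unit of the classical pathway, and their call depended on control 3: none of them passed with it. C1qa was at 45.9, 61.1, 42.8 and 45.2 CPM in the libraries labelled knockout 1 to 4, against 73.4, 75.1 and 40.8 CPM in controls 1 to 3. C1qb was at 71.8, 75.2, 63.7 and 59.0 CPM in the libraries labelled knockout 1 to 4, against 99.4, 105 and 52.1 CPM in controls 1 to 3. C1qc was at 62.4, 74.9, 48.1 and 50.9 CPM in the libraries labelled knockout 1 to 4, against 85.7, 101 and 56.9 CPM in controls 1 to 3. In each of them controls 1 and 2 were above every library labelled knockout, while control 3 was below or within the range of the knockouts (log2 fold changes -0.37 (SE 0.22), -0.34 (SE 0.22) and -0.46 (SE 0.22), edgeR adjusted p = 0.422, 0.47 and 0.312). Without control 3 all of them passed, at -0.61, -0.61 and -0.67 (edgeR adjusted p = 0.0251, 0.0105 and 0.045), and without control 2 they were at -0.23, -0.17 and -0.27. Against control 3 alone the direction turned, to 0.25 (SE 0.21), 0.37 (SE 0.17) and 0.052 (SE 0.24).

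In the lectin step all 5 members had a log2 fold change below 0, and 1 fell. Masp1, the protease that starts lectin activation (chromosome 16 from 23449417 to 23520815 on the minus strand), was at 63.7, 77.4, 58.2 and 74.1 CPM in the libraries labelled knockout 1 to 4, against 126, 139 and 94.0 CPM in controls 1 to 3. No library labelled knockout reached a control (log2 fold change -0.81, SE 0.15, edgeR adjusted p = 0.0287), and against control 3 the value was -0.46 (SE 0.17). Masp1 passed in 2 of 7 fits when each library was left out in turn (edgeR adjusted p up to 0.122). Masp1 overlaps Rtp4 on the opposite strand, which was at 14.2 to 19.5 CPM in the libraries labelled knockout and 14.5 to 21.5 CPM in the controls. Masp2, which cleaves C4 and C2, had a log2 fold change of -0.27 (SE 0.12), with control 3 inside the range of the knockouts.

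Neither mannose-binding lectin passed. Mbl1 was at 145, 174, 159 and 131 CPM in the libraries labelled knockout 1 to 4, against 256, 278 and 170.5 CPM in controls 1 to 3 (log2 fold change -0.62, SE 0.17, edgeR adjusted p = 0.0921). Control 3 was inside the range of the knockouts. Mbl2 was at 309, 307, 398 and 306 CPM in the libraries labelled knockout 1 to 4, against 428, 393 and 289.9 CPM in controls 1 to 3 (log2 fold change -0.17, SE 0.17, edgeR adjusted p = 0.656). Mbl2 overlapped between the groups, and its direction turned against control 3 (0.19 (SE 0.19)) and with library size as the only scaling (0.091). Mbl2 over Mbl1, per kilobase, was 3.08, 2.55, 3.61 and 3.37 in the libraries labelled knockout 1 to 4, against 2.41, 2.04 and 2.45 in controls 1 to 3, with all 4 libraries labelled knockout above the 3 controls (exact two-sided permutation p = 0.0571, 0.0952 adjusted over the 5 ratios). Fcna, ficolin A of macrophages, was at 16.1, 31.1, 9.06 and 17.9 CPM in the libraries labelled knockout 1 to 4, against 35.1, 63.7 and 29.9 CPM in controls 1 to 3. It overlapped and did not pass (log2 fold change -1.21, SE 0.45, edgeR adjusted p = 0.237), and knockout 3 had the lowest level.

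C3, the centre of the cascade, was the most abundant member per kilobase of exon, at 2431 ± 182 in the libraries labelled knockout and 3554 ± 1178 in the controls (CPM per kilobase, SD), and took 40.2% to 47.2% of all member CPM in a library. It was at 13204, 13344, 11391 and 12071 CPM in the libraries labelled knockout 1 to 4, against 22447, 21056 and 11326 CPM in controls 1 to 3. Control 3 was just below the lowest knockout, so the groups overlapped (log2 fold change -0.55, SE 0.27, edgeR adjusted p = 0.327), and against control 3 the direction turned (0.14 (SE 0.20)). Cfb, factor B, the protease of the alternative convertase, was at 1504, 1311, 1576 and 1532 CPM in the libraries labelled knockout 1 to 4, against 2279, 1984 and 1385 CPM in controls 1 to 3. It likewise overlapped (log2 fold change -0.35, SE 0.20, edgeR adjusted p = 0.393) and turned against control 3 (0.094 (SE 0.18)). Cfb lies 85 bases from C2 on chromosome 17, and 81.2% of its 75-base windows are shared with the read-through Gm20547.

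Properdin, encoded by Cfp and made by myeloid cells, stabilises that convertase and averaged 27.5 ± 12.3 CPM (SD, n = 4) in the libraries labelled knockout and 40.8 ± 12.9 CPM (SD, n = 3) in the controls (log2 fold change -0.57, SE 0.37, edgeR adjusted p = 0.487). Without knockout 2 the Cfp value was -0.91. Cfd, the adipsin of fat cells, which cleaves factor B, was at 2.49, 12.1, 1.05 and 0.646 CPM in the libraries labelled knockout 1 to 4, against 0, 0 and 3.20 CPM in controls 1 to 3. It had 0 reads in controls 1 and 2, was highest in knockout 2 and did not pass (log2 fold change 1.85, SE 1.73, edgeR adjusted p = 0.646). The fitted value was 0.34 without knockout 2, and without control 3 the other controls are at 0, so no fold was read from that fit. Of 5 adipocyte markers, Plin1 was at 0 in all 7 libraries, Adipoq in 6, and only Adrb3 passed the filter on low counts. Their summed level was 7.50, 8.04, 6.05 and 6.17 CPM in the libraries labelled knockout 1 to 4, against 26.5, 17.4 and 10.1 CPM in controls 1 to 3, nearly all of it Adrb3. Adrb3 fell without overlap in edgeR (log2 fold change -1.37, SE 0.29, edgeR adjusted p = 0.0487). It also passed DESeq2 but not limma-voom. Its part in the Cfd values was not tested. None of the 4 members of this step passed edgeR's or DESeq2's test, with 0 at an unadjusted p under 0.05 in edgeR and 2 in DESeq2.

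Among the 7 regulators none passed edgeR's test over all genes, 4 passed DESeq2's, 4 were lower at an unadjusted p under 0.05, and the same 4 did not overlap between the groups. Of all genes, DESeq2 called 8.34% in either direction. In edgeR 8.67% of all genes were lower at an unadjusted p under 0.05, and 7.63% were lower without overlap. Vtn, vitronectin, which keeps C5b-7 from membranes, was at 1965, 2071, 2188 and 1899.6 CPM in the libraries labelled knockout 1 to 4, against 4344, 4272 and 2395 CPM in controls 1 to 3 (log2 fold change -0.85, SE 0.23, edgeR adjusted p = 0.0835). Serping1, the C1 inhibitor, was at 804, 892, 897 and 822 CPM in the libraries labelled knockout 1 to 4, against 1772, 1931 and 977 CPM in controls 1 to 3 (log2 fold change -0.87, SE 0.22, edgeR adjusted p = 0.0762). In both, control 3 lay nearer to the highest library labelled knockout than to control 1 or 2. The same held for Cfi, C4bp, C4b and Hc, and for C6, C8a, C1rl and Masp1, which fell. Among the members without overlap only C8b differed. Cfi, factor I, which cleaves C3b and C4b, was at 766, 728, 733 and 705 CPM in the libraries labelled knockout 1 to 4, against 1404, 1290.3 and 907 CPM in controls 1 to 3 (log2 fold change -0.71, SE 0.17, edgeR adjusted p = 0.064). C4bp, its cofactor for C4b, was at 784, 755, 763 and 718 CPM in the libraries labelled knockout 1 to 4, against 1465, 1364 and 879 CPM in controls 1 to 3 (log2 fold change -0.71, SE 0.19, edgeR adjusted p = 0.0801). For these 4 regulators, as for most members, the libraries labelled knockout varied less than the controls. Cfi was at 733 ± 25.2 CPM in the libraries labelled knockout (SD, n = 4), against 1200.2 ± 260.5 CPM in the controls (SD, n = 3). The SD was larger in the libraries labelled knockout for C8g, Cfd, Cd55 and Cd59a.

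Clu, clusterin, which binds the soluble attack complex, was at 2463, 2039.8, 2595 and 2128 CPM in the libraries labelled knockout 1 to 4, against 3531, 4009 and 1963 CPM in controls 1 to 3. The groups overlapped (log2 fold change -0.46, SE 0.25, edgeR adjusted p = 0.373), and against control 3 its direction turned (0.23 (SE 0.20)). The membrane regulators Cd55, which speeds decay of the convertases, and Cd59a, which blocks the insertion of C9, were at -0.35 (SE 0.16) and -0.0069 (SE 0.20) in log2 fold change, and both overlapped between the groups. Cd55 shares 7.55% and Cd59a 1.73% of 75-base windows with a copy of the gene. Cd59a ranged from 38.4 to 75.9 CPM in the libraries labelled knockout and from 59.8 to 61.8 CPM in the controls. The receptor of C3a, C3ar1, was at 13.5, 12.7, 8.70 and 8.75 CPM in the libraries labelled knockout 1 to 4, against 13.1, 8.44 and 8.72 CPM in controls 1 to 3 (log2 fold change 0.12, SE 0.22, edgeR adjusted p = 0.83). The receptor of C5a, C5ar1, was at 3.09, 2.08, 4.06 and 3.75 CPM in the libraries labelled knockout 1 to 4, against 8.35, 3.33 and 3.56 CPM in controls 1 to 3 (log2 fold change -0.64, SE 0.36, edgeR adjusted p = 0.389). Without control 1, the highest library, the C5ar1 value was -0.088. Both are scarce myeloid transcripts whose groups overlapped.

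**Figure D3:**
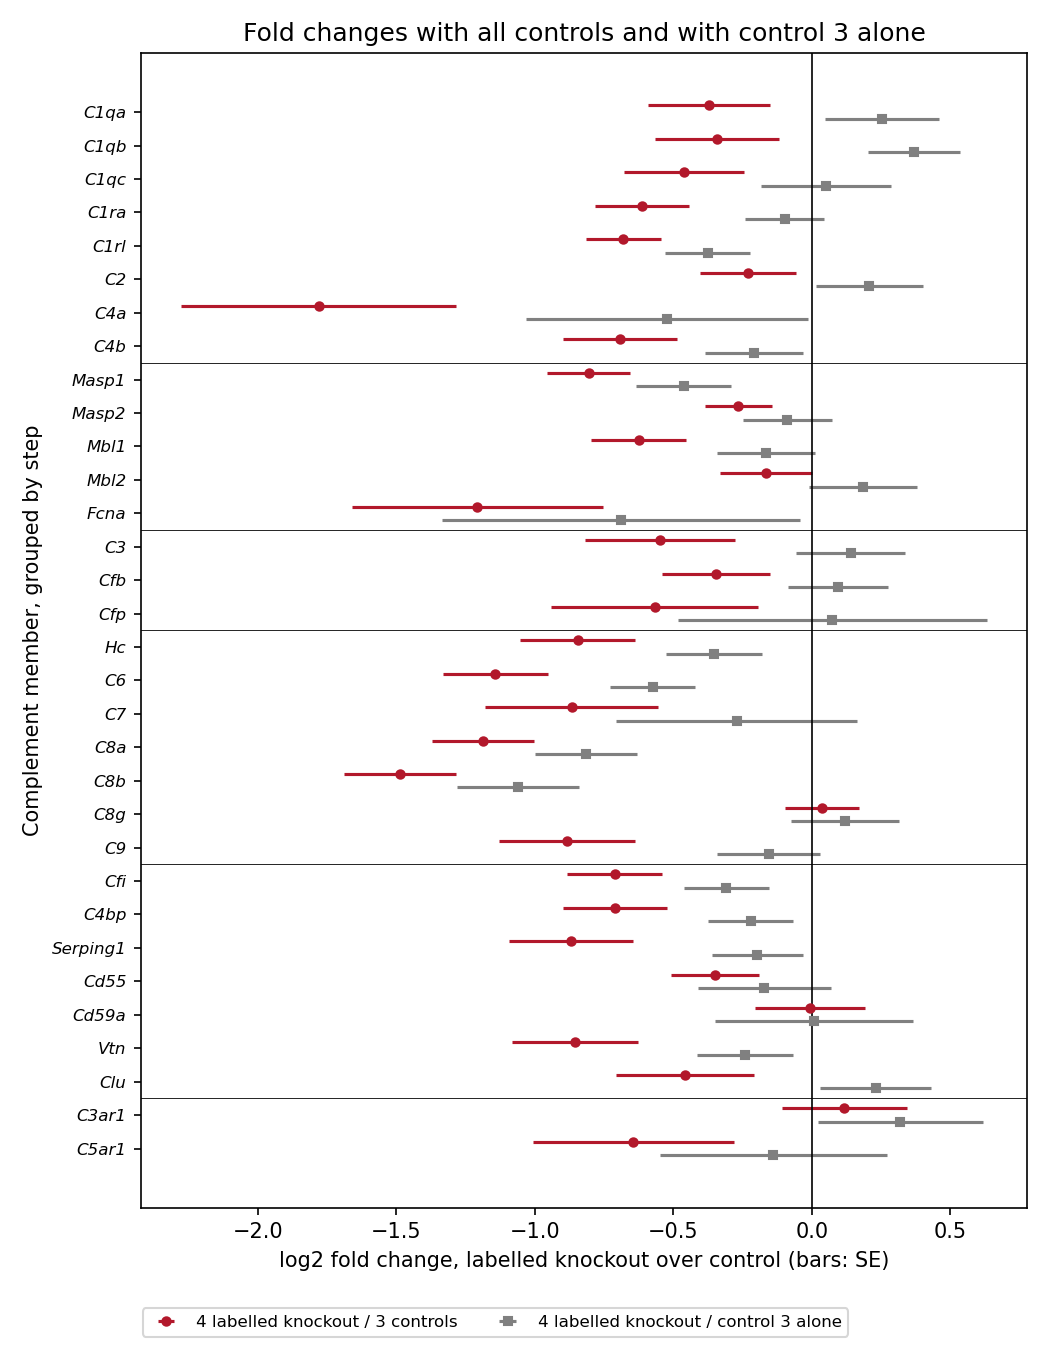
Log2 fold change (points) with SE (bars) for 32 members, grouped by step from classical (top) to receptors, for the 4 libraries labelled knockout over all 3 controls (red) and over control 3 alone (grey). Cfd, with 0 reads in controls 1 and 2, is left out, and the grey points of C8b, C8a, Fcna and C6 lie farthest left.

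By source, 5 of the 22 hepatocyte-made members fell, 21 had a log2 fold change below 0 and the median was -0.70. Among all genes tested 51.1% were below 0, 0.953% were called lower and 8.67% were lower at an unadjusted p under 0.05. Of the 7 macrophage-made members 0 passed edgeR's test and 1, Fcna, had an unadjusted p under 0.05, 6 were below 0, and the median was -0.46. In DESeq2 15 of the hepatocyte-made and 1 of the macrophage-made members (Fcna) were called lower, where 8.34% of all genes were called in either direction. With control 3 alone the hepatocyte-made median was -0.20, with 16 of 22 below 0, and the macrophage-made median 0.074, with 2 of 7 below 0. In that fit 47.9% of all genes were below 0. All 11 members whose 3 controls lay above every library labelled knockout were hepatocyte-made, where 7.63% of all genes were lower without overlap. Whether the sources differ was not tested.

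The summed level of the hepatocyte-made members was 28140.0, 27867, 26754 and 25924 CPM in the libraries labelled knockout 1 to 4, against 49608, 48869 and 27856 CPM in controls 1 to 3. Control 3 lay within the range of the libraries labelled knockout, and controls 1 and 2 lay far above. The acute phase list was at 36416, 36919, 44155 and 33478 CPM in the libraries labelled knockout 1 to 4, against 179778, 177693 and 34707 CPM in controls 1 to 3, again with control 3 inside the range of the libraries labelled knockout. Of its 27 genes 2 fell in edgeR (Saa3 and Itih4), 18 in DESeq2, 20 were lower at an unadjusted p under 0.05, and 26 were below 0. Its part in the complement differences was not tested.

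The summed level of the macrophage-made members was 239, 302, 194 and 206 CPM in the libraries labelled knockout 1 to 4, against 361, 407 and 218 CPM in controls 1 to 3. Beside it, 9 Kupffer cell markers summed to 863, 1308, 558 and 721 CPM in the libraries labelled knockout 1 to 4, against 1078, 1259 and 842 CPM in controls 1 to 3. Knockout 2 was the highest of its group in both sums, and knockout 3 the lowest. Of the 9 markers, Vsig4 among them being also a complement receptor of the wider list, 0 passed edgeR's or DESeq2's test, with 2 lower and 1 higher at an unadjusted p under 0.05, and their median was -0.62, while 8 markers of recruited macrophages had 0 past edgeR's test and 3 past DESeq2's, 4 higher and 1 lower at an unadjusted p under 0.05 in edgeR, and a median of 0.76. The Kupffer cell markers Clec4f and Timd4 were detected in every library. The 1 higher Kupffer cell marker was Slc40a1, the largest part of the sum in every library labelled knockout. Slc40a1 was at 332, 391, 260 and 292 CPM in the libraries labelled knockout 1 to 4, against 145, 205 and 279 CPM in controls 1 to 3. Of the 9 Kupffer cell markers 7 were below 0, so their sum and their median differ in what they show. The part of cell numbers in the C1q values was not tested.

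**Figure D4:**
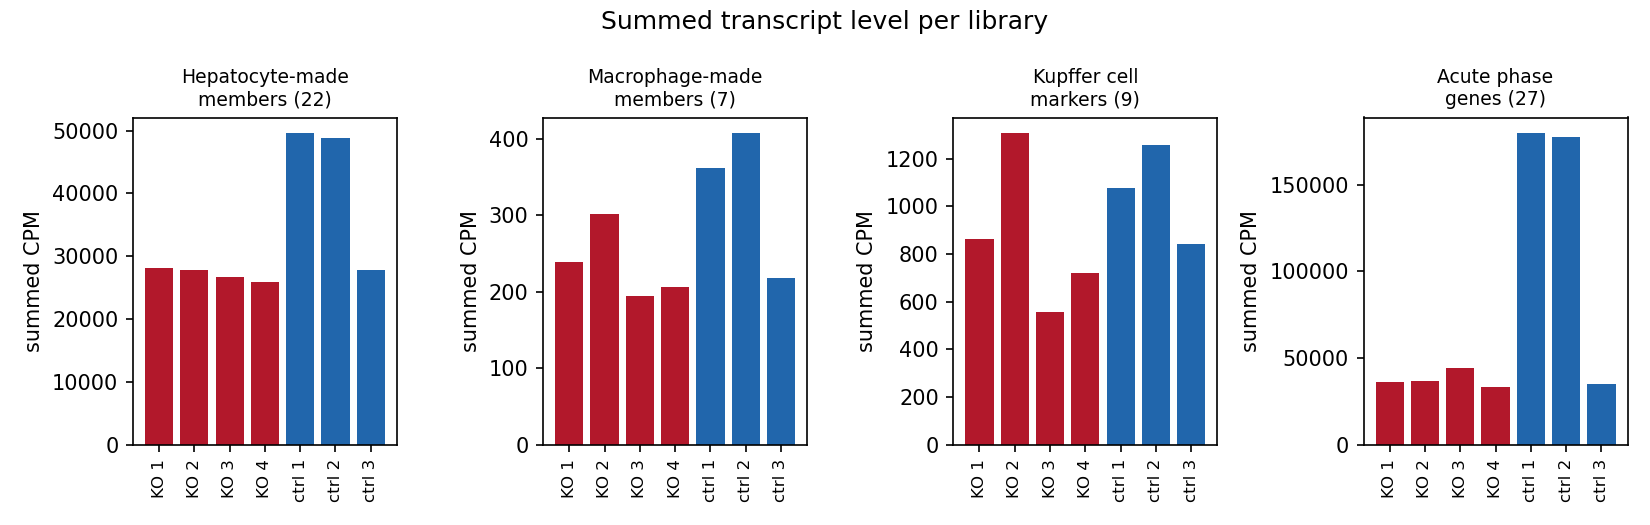
Summed CPM per library (bars, libraries labelled knockout in red left of the controls in blue) of the hepatocyte-made members, the macrophage-made members, Kupffer cell markers and acute phase genes. Control 3 lies within the range of the libraries labelled knockout in each panel, and controls 1 and 2 are highest in every panel but that of the Kupffer cell markers. That panel includes Slc40a1, the 1 Kupffer cell marker that was higher in the libraries labelled knockout at an unadjusted p under 0.05 in edgeR.

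By step, the median log2 fold change was -0.88 in the terminal step (3 of 7 fell), -0.71 among regulators (0 of 7), -0.62 in the lectin step (1 of 5), -0.54 in the classical step (1 of 8), -0.45 for C3 and the alternative step (0 of 4) and -0.26 for the receptors (0 of 2). Against control 3 alone the medians were -0.35, -0.20, -0.17, -0.023, 0.12 and 0.091 in that order, and 0.020 over all genes. The steps were not tested against each other.

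In order of level per kilobase of exon in the libraries labelled knockout, C3 was followed by Vtn at 1001 ± 62.3 in the libraries labelled knockout and 1808 ± 544 in the controls (CPM per kilobase, SD), and then by Clu at 671 ± 77.2 in the libraries labelled knockout and 922 ± 311 in the controls. C8g, at 179 ± 24.9 in the libraries labelled knockout and 174 ± 9.07 in the controls, and C8a, at 168 ± 22.6 in the libraries labelled knockout and 382 ± 76.2 in the controls, were within their spread of each other in the libraries labelled knockout, whereas in the controls C8a was the higher. C8b was lower, at 50.3 ± 10.5 in the libraries labelled knockout and 141 ± 35.1 in the controls. The scarcest members in the libraries labelled knockout were C3ar1, C5ar1 and C7, each under 3 CPM per kilobase.

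Of 26 other complement genes, 24 were in the table and 20 were tested: 2 fell, 1 rose and the other 17 missed the threshold. Among all genes tested 0.953% were called lower and 1.26% higher. The riser was Cd93, an endothelial and myeloid surface protein once proposed as a C1q receptor, at 29.8, 23.4, 27.2 and 24.1 CPM in the libraries labelled knockout 1 to 4, against 18.7, 14.8 and 15.9 CPM in controls 1 to 3 (log2 fold change 0.67, SE 0.13, edgeR adjusted p = 0.0356). Of 7 markers of sinusoidal endothelium, 0 passed edgeR's test and 1 (Kdr) DESeq2's, all 7 were below 0, 3 of them without overlap and at an unadjusted p under 0.05, and they summed to 376 to 502 CPM in the libraries labelled knockout and 509 to 602 CPM in the controls. Their part in the Cd93 values was not tested. Colec10, a collectin of the lectin pathway, fell, at 18.5, 24.6, 12.0 and 21.9 CPM in the libraries labelled knockout 1 to 4, against 43.1, 45.7 and 64.5 CPM in controls 1 to 3 (log2 fold change -1.41, SE 0.24, edgeR adjusted p = 0.0287). Susd4, a membrane regulator with complement control domains, fell, at 6.62, 6.65, 3.76 and 2.51 CPM in the libraries labelled knockout 1 to 4, against 14.6, 17.9 and 15.0 CPM in controls 1 to 3 (log2 fold change -1.69, SE 0.32, edgeR adjusted p = 0.0344). In all 3 genes control 3 lay with the other controls: against control 3 alone the values were 0.71 (SE 0.19) for Cd93, -1.75 (SE 0.32) for Colec10 and -1.61 (SE 0.48) for Susd4, none past the test. With each library left out in turn, Cd93 passed in 2 of 7 fits, Colec10 in 3 and Susd4 in 3. In DESeq2 2 of the 20 rose and 6 fell, where 8.34% of all genes were called in either direction.

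At an unadjusted p under 0.05 in edgeR, 3 of the 20 were higher and 7 lower, where 9.34% of all genes were higher and 8.67% lower. Itgax and Itgam encode the alpha chains of the iC3b receptors CD11c/CD18 and CD11b/CD18, which pair with the same beta chain. Itgax was at 9.11, 8.81, 10.1 and 10.1 CPM in the libraries labelled knockout 1 to 4, against 1.52, 3.89 and 4.95 CPM in controls 1 to 3 (log2 fold change 1.45, SE 0.33, edgeR adjusted p = 0.055). Itgam was at 5.18, 5.56, 3.99 and 5.17 CPM in the libraries labelled knockout 1 to 4, against 22.1, 11.1 and 4.81 CPM in controls 1 to 3 (log2 fold change -1.34, SE 0.44, edgeR adjusted p = 0.163). The Itgax groups did not overlap and it was higher in the libraries labelled knockout, while Itgam was lower with control 3 among the knockouts. Cpn1 and Cpn2, the subunits of the carboxypeptidase that trims C3a and C5a, were at -0.31 (SE 0.13) and -0.73 (SE 0.18), Cfhr2 at -0.34 (SE 0.12) and C1qbp, a mitochondrial C1q-binding protein, at 0.25 (SE 0.10), in log2 fold change.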

How the data were processed

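Raw counts per gene symbol were deposited for 7 liver libraries, with 1 column each; 0 other columns with values of samples went unused. Per the labels' protocols, polyadenylated RNA went into directional libraries that were sequenced single-end over 75 nt. The submitters' processing notes name STAR, DESeq2 and mm10 but no role or version. Which counter and annotation were used is not given in the sources used here. Reads in no feature were 8.62% to 16.3% of a library and ambiguous ones 0.433% to 0.575%, and both entries were left out of library sizes and tests.

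Sample titles gave the groups. Genes were tested with edgeR 4.0.16 in R 4.3.3 (TMM factors, filterByExpr with a minimum count of 10, robust glmQLFit, two-sided quasi-likelihood test) on 13638 genes, without covariates; the labels name no batch. The p-values cover the spread among these mice only. Chi-square tests of counts between libraries of a group gave 37.1 or more per degree of freedom, so none is a repeat count of the same library. Whether any libraries share a mouse cannot be told from these tests. Alternatives included DESeq2 1.42.0, voom of limma 3.58.1, each library left out and the replicate number as a block. Coordinates, exon lengths and transcripts come from GENCODE M21 (GRCm38, which is mm10) and promoters from RefSeq (GRCm38.p6). Members, lists and tests were chosen with earlier results of these data known. Values in every library were given for members with an adjusted or unadjusted p under 0.05 or no overlap, the C1q chains and the 2 most abundant members of each step; others named with values were chosen after those were seen. A further result on the wider complement list is not reported here. Floors cover counting error only.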

Additional observations from a re-analysis of the deposited data

Results flagged for a closer look

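Among 57 complement genes screened in the group of 4 libraries labelled knockout, 6 had 1 library far from the others. Chance marks about 1 in 20 groups of normally distributed values. That rate need not hold for CPM, least of all for genes with few or 0 reads in most libraries, such as C1rb and Cd55b. C1s2 was at 29.7 CPM in knockout 1 (1591 reads), against at most 0.164 CPM in the other libraries labelled knockout and 0.101, 0 and 0.107 CPM in controls 1 to 3. C1rb, 43453 bases away on chromosome 6, was at 3.70 CPM in knockout 1 (198 reads), against at most 0.0266 CPM in the other libraries of the group. They are paralogs of the C1 protease genes C1s1 and C1ra, which did not stand apart in that library: C1ra was at 150.3 CPM in knockout 1 and 139 to 159 CPM in knockouts 2 to 4, and C1s1 was at 582 CPM in knockout 1 and 569 to 683 CPM in knockouts 2 to 4. Neither C1s2 nor C1rb passed the filter on low counts, so neither was tested. Cfd was at 12.1 CPM in knockout 2 and at most 2.49 CPM in the others. C1qa was at 61.1 CPM in knockout 2, next to 45.9 CPM. Mbl2 was at 398 CPM in knockout 3, next to 309 CPM. Cd55b was at 0.0798 CPM in knockout 2 (3 reads) and at 0 in the rest, which is at the limit of 3 reads that a count of 0 allows. The groups of 3 controls are too small for this screen.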

How the results depend on the processing

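The number of members called was 5 with RLE or upper-quartile factors, without robust estimation, with all genes kept, and with genes above 1 CPM in 4 libraries. DESeq2 called 16 members and 1136 genes, limma-voom 3 and 137, and library size as the only scaling, chosen after seeing the data, 3 and 498. That scaling moved the median of all genes to 0.22, with 418 called higher and 80 lower in place of 172 and 130, and the medians of all members to -0.36 and of the hepatocyte-made to -0.44; relative to all genes the members' median was -0.59, against -0.62 with TMM factors. A threshold of 0.1 gave 13 members and 767 genes, and 0.01 gave 0 and 27. With the replicate number as a block, 2 members (C8b and Fcna) and 74 genes were called. Same-numbered libraries did not deviate together (correlations -0.052, 0.080 and -0.137). These correlations cannot exclude a shared origin, and the labels give the libraries only a shared number.

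Leaving out 1 library at a time gave 0 to 21 members and 31 to 1310 genes called, 16 to 27 members at an unadjusted p under 0.05, and member medians of -0.82 to -0.49. Without controls 1 and 2 together, 0 members and 9 genes were called in edgeR, 5 members had an unadjusted p under 0.05 (all genes 10.9%), and the medians were -0.16 for all members, -0.20 for the hepatocyte-made and 0.074 for the macrophage-made. Signs turned there for C1qa 0.25, C1qb 0.37, C1qc 0.052, C2 0.21, C3 0.14, Cd59a 0.0087, Cfb 0.094, Cfp 0.074, Clu 0.23, Mbl2 0.19 (log2 fold change). They turned with library size only for C2 0.033, Cd59a 0.22, Mbl2 0.091, under the block for C8g -0.00026, without a low-count filter for Cd59a 0.00021, without knockout 1 for C3ar1 -0.00054, Cd59a 0.16, without knockout 3 for C8g -0.044, without control 2 for Cd59a 0.0092 and without control 3 for C8g -0.0071. Over the fits that left out 1 library, C3ar1 ranged over -0.00054 to 0.35, C8g ranged over -0.044 to 0.11, Cd59a ranged over -0.14 to 0.16. None of these was called, and the cause was not tested. Depth limits Cfd, C7 and the receptors most: 3 reads correspond to 0.0561 to 0.152 CPM.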
